A study of Saccharomyces cerevisiae with 18 samples.

Results

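Colonies of 2 strains of the yeast *S. cerevisiae*, KV2668 and KV473, were compared on the 6 arrays that measured them on solid medium, 3 per strain, of the 18 arrays of the series. Both strains are in the Sigma1278b background, a laboratory lineage kept for its adhesive, invasive and wrinkled growth. The labels give KV2668 as the wild type and KV473 as a *FLO11* mutant, and the growth protocol gives 5 days on YPS plates (yeast extract, peptone and sucrose) at 30°C for the colonies of both. Mutants of the study were made by exchanging a locus for a hygromycin or kanMX resistance cassette built by PCR, and which of them KV473 carries, and the mating type of the strains, are not given in the sources used here. Each strain stands for 1 genotype, and nothing says whether replicates came from separate plates or cultures, so p-values measure only the spread between these arrays. The same pair in liquid medium, with 6 arrays, and the pair KV68 (labelled wild type) and KV63 (labelled *FLO11* mutant), with 6 arrays of colonies, were used only for values set beside the main comparison. The question put by the design is which transcripts differ between a colony with and a colony without Flo11. The 2 strains also differed in their mating genes and over chromosome XII, as described below. With 1 genotype on each side these differences cannot be told apart in this comparison. Which of them another transcript follows was not tested.

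Flo11 is a mucin-like cell-surface protein that yeast cells need to stick to agar, to grow into it and to form wrinkled colonies, and its gene is controlled by the MAPK, cAMP-PKA and glucose-repression pathways. Haploid yeast cells are of mating type a or alpha. An alpha cell makes alpha-factor and the receptor for a-factor, an a cell makes a-factor and the receptor for alpha-factor, and the proteins a1, alpha1 and alpha2 from the mating-type locus set which of these genes are read. A colony is a crowded and uneven habitat in which sugars, metals, vitamins and oxygen run down, so its RNA pools cells in different states.

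The arrays report 1 deposited log2 value per probe set, a group of short probes against 1 transcript. In what follows a level is such a log2 value, given for replicates 1, 2 and 3 in that order, and a difference is the mean log2 level of KV2668 minus that of KV473, so that 1 is a change of 2-fold. The background of an array, taken as the 95th percentile of its probe sets against the distant yeast *S. pombe*, lay between 4.34 and 4.56. A probe set was called higher or lower when its adjusted p was under 0.05 and its difference over 1 in size. The 3 colony arrays of KV473 correlated with each other at 0.993 or more and those of KV2668 at 0.994 or more. Of the arrays set beside them, KV68 replicate 3 stood apart, at a correlation as low as 0.909 with another array of its strain, and differences between KV68 and KV63 are given with and without it. In RNA of whole colonies, fewer cells of a kind and less RNA per cell cannot be told apart.

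*FLO11* went against the labels. Its level was 12.95, 12.76 and 13.10 in KV473, the strain labelled as the mutant, and 5.12, 5.43 and 4.78 in KV2668, labelled wild type. The KV2668 arrays sat just above background and nowhere near those of KV473. The difference was −7.83 (SE 0.13, adjusted p = 3.38e-14), which is 227-fold. It was −7.92 in liquid medium, and −8.21 between KV68 and KV63 (−8.17 without KV68 replicate 3), whose labels *FLO11* contradicts in the same way. For this reason the groups are named by strain throughout, and no direction is read as wild type against mutant.

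The genes next to *FLO11* on chromosome IX did not follow it. *YAP5*, an iron-responsive transcription factor, lies 2 genes away and was 0.62 higher in KV2668 (SE 0.07, adjusted p = 4.19e-06), short of the size needed for a call. The gene between them, *YIR018C-A*, differed by 0.32 (adjusted p = 0.0141) and *MET28*, a regulator of sulfur metabolism 3 genes away, by 0.21 (adjusted p = 0.116). On the other side *MRS1*, a splicing factor of mitochondrial introns 2 genes away, differed by −0.04 (adjusted p = 0.714). *YIR020C* and *YIR021W-A* had no probe set tested. The other flocculins measured, *FLO9* and *FLO10*, differed by 0.19 and −0.06, neither past the test. The probe set of *FLO9* can detect more than 1 gene, and only 3 of the 5 flocculins listed were tested, *FLO11* included.

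Across the genome 333 of the 5424 probe sets tested passed both thresholds (6.14%), 236 of them higher in KV2668 (4.35%) and 97 lower (1.79%). In each of the 333 the 3 arrays of one strain lay clear of the 3 of the other, as they also did in 62.1% of all probe sets tested. By adjusted p alone, with no minimum size, 60.1% of the probe sets passed, of which 1620 were higher (29.9%) and 1639 lower (30.2%), so that small differences were common. The calls fell unevenly over 3 classes. Of 458 probe sets of chromosome XII outside the mating lists, 137 were higher and 3 lower. Of 52 probe sets of mating genes, 10 were higher and 14 lower. The other 4914 gave 89 higher and 80 lower, and their median difference was −0.04.

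Chromosome XII as a whole was raised in KV2668. All of its 462 probe sets together had a median difference of 0.81, against −0.09 to 0.05 for the medians of the 15 other chromosomes, and 447 of the 462 lay above 0. By adjusted p alone 426 were higher and 11 lower. The chromosome held 8.52% of the probe sets tested and 58.5% of the higher calls. Taken array by array relative to the KV473 mean, the median over the chromosome was 0.80, 0.82 and 0.79 in KV2668 and −0.00, −0.02 and 0.02 in KV473. The arrays of the strains were thus far apart and each tight within itself, and the difference of 0.80 gave p = 0.10 in an exact two-sided permutation test, the smallest p that 3 arrays against 3 allow. The same p was reached by 10 other chromosomes at differences of only −0.08 to −0.03, so the p does not set chromosome XII apart from them.

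**Figure D1:**
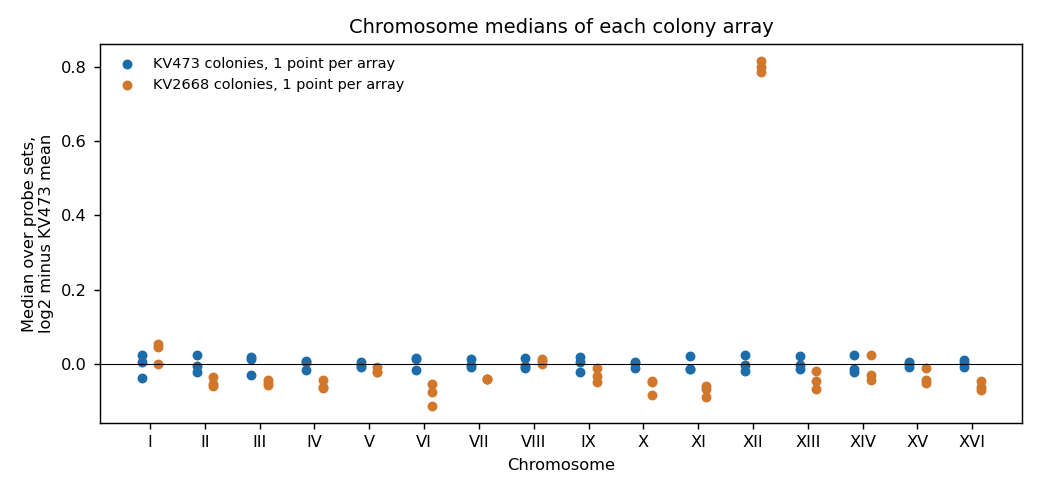
Each point is the median, over the probe sets of a chromosome (x axis), of 1 colony array's log2 values after the KV473 mean of each probe set is subtracted (y axis), in blue for KV473 and orange for KV2668. The KV2668 points of chromosome XII lie at 0.79 to 0.82, while the KV473 points and every other chromosome stay near 0.

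The shift ran the whole length of the chromosome. The 60 probe sets of the left arm had a median difference of 0.74, the 139 of the right arm before the ribosomal RNA genes 0.88, and the 262 beyond them 0.78. In 10 bins of equal size along the gene order, the medians ran from 0.70 to 0.91, with no bin near 0. The quartiles of the chromosome lay at 0.56 and 1.07, against −0.26 and 0.18 on all other chromosomes. Sorted by their level in KV473 into groups of 154, the dimmest and the middle probe sets had medians of 0.84 and 0.90 and the brightest 0.60.

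**Figure D2:**
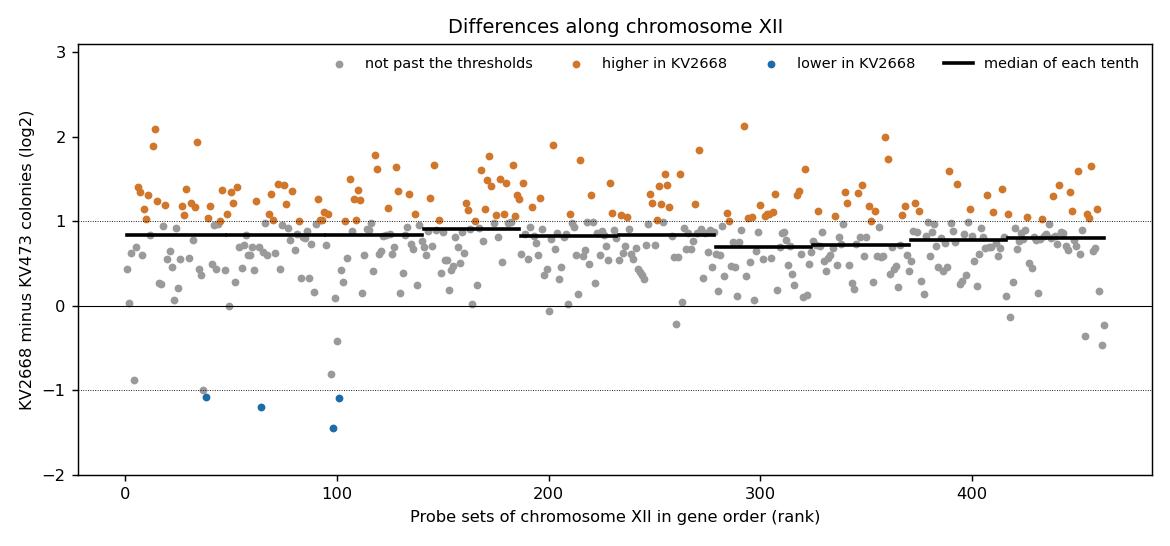
Log2 difference between KV2668 and KV473 colonies (y axis) for the 462 probe sets of chromosome XII in gene order (x axis), orange where called higher, blue where called lower and grey otherwise, with dotted lines at the size threshold and black bars for the median of each of 10 bins. The bars run from 0.70 to 0.91 along the whole chromosome, and the few probe sets well below 0 include *PAU23*, *PAU17*, *THI73* and *AFB1*.

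The same shift was present between these strains in liquid medium, where the chromosome XII median was 0.87, and absent between KV68 and KV63, where it was −0.00 (−0.03 without KV68 replicate 3). Because of it, a call for a gene of chromosome XII was read against its chromosome. When each chromosome was centred on its own median level in every array, 4 probe sets of chromosome XII remained higher and 13 were lower, out of 198 calls in all (3.65%). This lowered the values of chromosome XII by more than the median difference of 0.81, *SHH4* going from 1.90 to 0.99. Calls near the size threshold therefore depend on the centring chosen. DNA of the strains was not measured.

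*BOP2*, a gene of unknown function, read 9.61, 9.51 and 9.38 in KV473 and 11.34, 11.97 and 11.59 in KV2668. This was the widest rise on the chromosome, at 2.13 (SE 0.12, adjusted p = 1.2e-08), or 1.22 after centring. *AQY2*, an aquaporin, rose from 7.78, 7.85 and 7.89 to 9.72, 10.06 and 10.02, a difference of 2.09 (SE 0.14, adjusted p = 3.59e-08). Its neighbour *YLL053C*, which in Sigma1278b belongs to the same reading frame, rose by 1.89. These aquaporin probe sets also stood out in liquid medium, at 2.49 and 2.15. *CIS1* rose by 2.00 and *TPO1*, a polyamine exporter of the plasma membrane, by 1.94 (adjusted p = 8.38e-08 and 1.03e-09). With *BOP2* and *AQY2* they were the 4 that stayed higher after centring. For *CIS1* the liquid difference was only 0.21, and the difference between the media was itself past the test at 1.80 (adjusted p = 1.27e-05).

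The other large rises on chromosome XII no longer reached the size threshold once their chromosome was centred. These were *SHH4*, a mitochondrial homologue of a succinate dehydrogenase subunit (difference 1.90), *CDD1*, a cytidine deaminase (1.84), *BMT6*, a methyltransferase of ribosomal RNA (1.79), *YPS3*, an aspartic protease of the cell surface (1.77), and the nuclear import receptor *KAP95* (1.74).

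Against the tide of the chromosome, 3 probe sets outside the mating lists were lower. *THI73*, a thiamine-regulated transporter, read 10.82, 10.67 and 10.85 in KV473 and 10.06, 9.20 and 9.48 in KV2668, a difference of −1.20 (SE 0.16, adjusted p = 2.72e-05), or −2.11 after centring. The others were probe sets of *PAU23* (−1.45) and *PAU17* (−1.08), each of which can detect several members of the seripauperin family. Their group is taken up again below with its members on other chromosomes.

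Mating genes showed opposite programmes in these strains. The 7 a-specific genes tested were all higher in KV2668, with a median difference of 2.65, and the 5 alpha-specific genes all lower, with a median of −3.77. The mean level of the a-specific genes minus that of the alpha-specific genes was 2.61, 2.39 and 2.35 on the KV2668 arrays and −4.34, −5.72 and −5.10 on those of KV473. The sign separated the strains on every array, in liquid medium as well, where the values were 2.54, 2.71 and 2.72 against −5.45, −5.33 and −5.43.

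At the mating-type genes themselves, *HMRA1*, whose probe set reads the a1 transcript, was at 3.32, 3.41 and 3.34 in KV473, below background on all 3 arrays, and at 10.48, 10.95 and 10.47 in KV2668. Set against the background of the KV473 arrays it was at least 75-fold higher in KV2668 (adjusted p = 3.38e-14). *HMLALPHA1*, for the activator alpha1, showed the reverse, 10.64, 10.71 and 10.55 in KV473 against 4.33, 3.70 and 4.68 in KV2668, where 1 of 3 arrays was above background. With 2 arrays not above background, the fitted difference of −6.39 (adjusted p = 1.66e-11) is not a measured fold. *HMRA2* was lower by 1.16 in KV2668 (adjusted p = 2.09e-07). The probe sets of *HMLALPHA1* and *HMRA2* can each detect more than 1 copy of the mating-type sequences, so their reads cannot be placed at 1 locus.

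Among the a-specific genes, *MFA2*, a precursor gene of a-factor, read 8.99, 7.16 and 8.01 in KV473 and 12.73, 12.03 and 12.34 in KV2668, a difference of 4.32 (SE 0.33, adjusted p = 1.37e-07). *MFA1*, the other precursor gene, rose by 3.45 (SE 0.23, adjusted p = 5.01e-08), from 9.04, 7.70 and 8.38 to 12, 11.77 and 11.69. *STE6*, the transporter that exports a-factor, was at 8.34, 8.34 and 8.16 against 10.21, 9.96 and 10.04, a rise of 1.79. The precursor levels thus spread widely among the KV473 arrays and little among those of KV2668, while *STE6* was tight in both.

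*AGA2*, the adhesion subunit of a-agglutinin, rose by 3.83 (SE 0.24, adjusted p = 2.3e-08), from 7.04, 5.68 and 6.20 to 10.37, 9.89 and 10.15. The alpha-factor receptor *STE2* rose by 2.65 (SE 0.29) and *BAR1*, the protease that degrades alpha-factor, by 2.40 (SE 0.23), with adjusted p = 4.01e-06 and 1.36e-06. In KV473 both were highest in replicate 1 and lowest in replicate 2, at 8.85 against 7.15 for *STE2* and 7.01 against 5.62 for *BAR1*, and *MFA1*, *MFA2*, *AGA2* and *ASG7* shared that pattern. *ASG7*, which acts on the pheromone-response G protein, rose by 1.91. None of the 7 a-specific genes overlapped between the strains, as was so for 62.1% of all probe sets tested.

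The pheromone genes of alpha cells fell furthest. *MF(ALPHA)1*, the main precursor of alpha-factor, read 13.92, 14.05 and 14.01 in KV473 and 6.32, 6.03 and 6.54 in KV2668, a difference of −7.70 (SE 0.15, adjusted p = 1.42e-13) or 208-fold. *MF(ALPHA)2* differed by −7.20 (SE 0.13, adjusted p = 4.99e-14), from 12.53, 12.80 and 12.77 to 5.61, 5.18 and 5.70. *SAG1*, alpha-agglutinin, stood at 12.65, 12.78 and 12.68 against 8.87, 9.04 and 8.91 and differed by −3.77. All 3 stayed above background on every KV2668 array, and none overlapped between the strains (62.1% of all probe sets did not). *STE3*, the receptor for a-factor, fell by 3.23 (SE 0.08, adjusted p = 1.65e-12). *AFB1*, the barrier protein against a-factor, fell by 1.10 although it lies on chromosome XII, and by 2.01 after centring.

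Genes read in both haploid types, or induced by pheromone, gave fewer calls. Of 14 haploid-specific genes 2 were lower and 1, *STE11* on chromosome XII, higher, and of 23 pheromone-induced genes 5 were lower and 1, *ASG7*, higher, beside 1.79% lower and 4.35% higher over all probe sets. *AGA1*, the anchor of a-agglutinin, read 11.11, 10.74 and 11.06 in KV473 against 8.74, 8.45 and 8.60 in KV2668, a difference of −2.37 (SE 0.11, adjusted p = 2.44e-09). *FUS1*, needed for cell fusion, fell by 1.73 and *FAR1*, which arrests the cell cycle in response to pheromone, by 1.44. *PRM6* fell by 2.07, *FIG1* by 1.10 and *PRM1*, also of cell fusion, by 1.02, and the G-protein subunit *STE4* by 1.02. The call of *PRM1* was lost without KV473 replicate 1 (difference −0.80) or KV2668 replicate 2 (−0.89), and that of *STE4* without KV2668 replicate 2 (−0.98) or KV473 replicate 2 (−0.96). After each chromosome was centred, *FIG1* and *STE4* lost their calls, at −0.94 and −0.999. *STE11*, a kinase of the pheromone and filamentation cascades, rose by 1.22, but it lies on chromosome XII and kept only 0.31 after centring. The brighter probe set of *PRM7* differed by 0.49, and the other rose by 1.02, a call lost without KV473 replicate 1 or KV2668 replicate 2 or 3 (0.94 to 0.97).

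**Figure D3:**
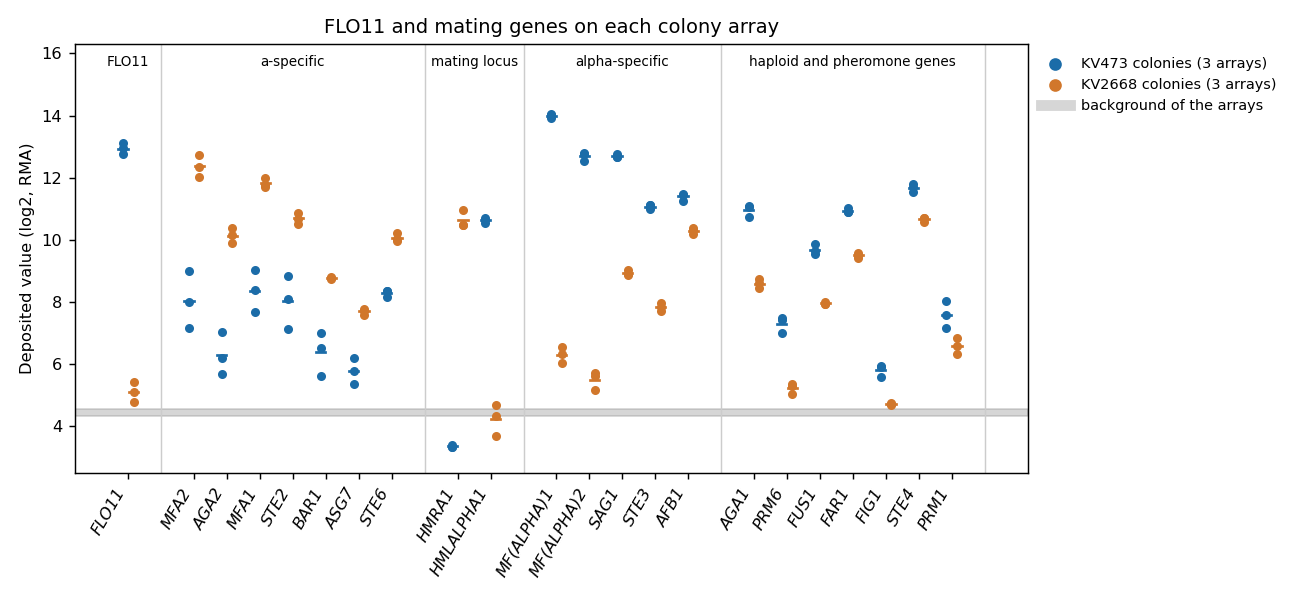
Deposited log2 value (y axis) of *FLO11* and of mating genes past the thresholds on each colony array, in blue for KV473 and orange for KV2668, with the strain mean as a bar and the background range of the arrays in grey. *HMRA2*, *STE11* and *PRM7*, which also had a called probe set, are not drawn. The a-specific genes and *HMRA1* lie higher in KV2668 and the alpha-specific genes higher in KV473, with no overlap (as in 62.1% of all probe sets tested). *FLO11* in KV2668 sits just above background.

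All 10 higher mating probe sets and 9 of the 14 lower passed the thresholds in the same direction in liquid medium, where 8.28% of probe sets passed in either direction. None did so between KV68 and KV63, with or without KV68 replicate 3 (backgrounds 0.442% and 0.682%), and without it 2 of the 10 passed in the opposite direction. That array read 0.17 on the a-minus-alpha scale, where the other KV68 arrays were at −5.87 and −6.09 and the KV63 arrays between −5.61 and −4.35.

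Beyond the mating genes, lists of known function were counted with their chromosome XII members, against 1.79% lower and 4.35% higher over all probe sets. This background applies to each list below. On the other chromosomes together, 98 of 4962 probe sets were higher (1.98%) and 93 lower. The zinc list, genes that the activator Zap1 reads when zinc is scarce and others of zinc balance, had 7 of 15 members lower and none higher, with a median difference of −0.88 against −0.01 over all probe sets. *ZRT1*, the high-affinity zinc importer, was at 13.19, 12.92 and 13.06 in KV473 and 9.96, 9.30 and 9.22 in KV2668, a difference of −3.56 (SE 0.17, adjusted p = 2.38e-09) or 11.8-fold. *YOR387C*, of unknown function, fell by 3.55 (adjusted p = 2.72e-09, SE 0.17), from 8.61, 9.39 and 9.06 to 5.63, 5.35 and 5.41. *ZPS1*, a zinc-regulated cell-surface protein, was at 12.62, 12.71 and 12.71 against 10.31, 10.05 and 10.22 and fell by 2.49. Each of these genes was lower on every KV2668 array than on any KV473 array, where 62.1% of all probe sets were apart in either direction. *ADH4*, an alcohol dehydrogenase, fell by 2.32, the membrane protein *IZH2* by 1.81, and *ZAP1* itself by 1.15 (SE 0.07, adjusted p = 3.36e-08). Not every member was lower, the vacuolar transporter *ZRC1* being at 0.30. *ZRT2*, the low-affinity importer on chromosome XII, differed by 0.52, under the median of its chromosome.

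The 4 widest zinc genes differed in the other colony pair too, and were not called in liquid. Between KV68 and KV63, which share no array with this comparison, *ZRT1* differed by −2.44 (adjusted p = 0.0016), *YOR387C* by −3.21 (4.66e-07), *ZPS1* by −2.49 (2.93e-05) and *ADH4* by −1.71 (0.000306). Without KV68 replicate 3 they differed by −2.93, −3.13, −2.10 and −1.89. In liquid medium the same 4 genes gave −0.75, 0.06, 0.02 and −0.17, and the difference between the media passed the thresholds for each, from −2.14 for *ADH4* to −3.61 for *YOR387C*. *IZH2* was an exception among the colonies, at −0.46 between KV68 and KV63 and 0.70 without replicate 3.

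Thiamine genes followed the zinc genes on a smaller scale. In their list 4 of 18 members were lower (1.79% of all probe sets) and none was higher. By adjusted p alone 13 were lower (30.2% of all probe sets), and the median difference was −0.53. *THI2*, an activator of thiamine synthesis genes, was at 9.65, 9.43 and 9.52 in KV473 against 8.47, 8.07 and 8.15 in KV2668 and fell by 1.30 (SE 0.11, adjusted p = 2.76e-07). *THI4*, which makes the thiazole part of thiamine, fell by 1.57 but with wide spread (SE 0.31, adjusted p = 0.000697), its levels being 10.25, 11.35 and 10.22 against 9.81, 8.44 and 8.87. *THI22* fell by 1.09 and *THI73* is described with its chromosome. The call of *THI22* was lost without KV473 replicate 2, at −0.98. In liquid medium *THI2* and *THI4* differed by 0.29 and −0.04, and between KV68 and KV63 by −1.10 (adjusted p = 0.00115) and −1.72 (adjusted p = 0.0164), or −1.02 and −1.91 without KV68 replicate 3.

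Genes of the anaerobic cell wall, the seripauperins PAU, TIR and DAN that replace other mannoproteins when oxygen is short, gave 7 lower of 10 and a median of −1.40. *PAU5* was at 13.49, 13.87 and 13.56 in KV473 and 11.68, 10.86 and 11.15 in KV2668, a difference of −2.41 (SE 0.16, adjusted p = 3.67e-08). *TIR2* fell by 1.76 (adjusted p = 2.39e-07), *TIR4* by 1.52 and *DAN1* by 1.29 (SE 0.23, adjusted p = 0.000252). *PAU7* fell by 2.69 and *PAU2* by 1.81, in probe sets that may detect several seripauperin genes. Within this group KV473 replicate 2 was the highest array and KV2668 replicate 1 the highest of its strain, for *PAU5*, *TIR2*, *TIR4* and *DAN1* alike. *UPC2*, the activator of sterol uptake and of many of these genes, was at 11.06, 11.33 and 10.91 against 9.76, 9.52 and 9.65 and fell by 1.46 (SE 0.10, adjusted p = 6.14e-08). The oxysterol-binding protein gene *HES1* fell by 1.97. In the wider lists 2 of 17 hypoxic genes and 2 of 28 sterol genes were lower, in both cases *UPC2* and the sterol transporter *PDR11*. By adjusted p alone 11 hypoxic genes were lower and 2 higher, and 13 sterol genes lower and 4 higher. Over all probe sets 30.2% were lower and 29.9% higher. The medians of the hypoxic and sterol lists were −0.29 and −0.14. The *PDR11* call, at −1.03, was lost without KV473 replicate 2 or KV2668 replicate 2 or 3 (−0.99 to −0.94). *ANB1*, the hypoxic translation factor, differed by 0.00, and the desaturase *OLE1* by −0.30.

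These anaerobic genes were the most dependent on which other arrays were used. Between KV68 and KV63 the list's median was −0.84, and 0.58 without KV68 replicate 3. For *UPC2* the values were −0.03 and 0.43, for *PAU5* −0.74 and 0.33, and for *TIR4* −1.48 and 0.27. In liquid medium the list's median was 0.54, and its member *DAN1* was near background there in both strains. When all 18 arrays were fitted together, so that KV68 replicate 3 entered the estimate of the spread, *TIR4* (adjusted p = 0.204), *DAN1* (0.437), *PDR11* (0.163) and *HES1* (0.0837) no longer passed, while *PAU5*, *TIR2* and *UPC2* did.

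Sugar transport split in both directions. In the hexose transporter list 4 of 22 genes were higher and 3 lower, beside 4.35% and 1.79% over all probe sets. *HXT2*, a high-affinity glucose transporter, was at 10.18, 9.53 and 10.39 in KV473 against 11.48, 12.26 and 12.01 in KV2668, a rise of 1.89 (SE 0.21, adjusted p = 5.43e-06). *HXT4* rose by 1.70 (SE 0.15, adjusted p = 4e-07), from 8.14, 8.08 and 8.35 to 9.74, 9.97 and 9.95. *HXT8* and *HXT11* rose by 1.45 and 1.39. In the other direction *HXT13*, a polyol transporter, fell by 1.43 (SE 0.11, adjusted p = 1.76e-07) and the glycerol importer *STL1* by 1.04, a call lost without KV2668 replicate 1 (−0.98) or after centring (−0.97). *HXT7*, *HXT5*, *HXT3* and *HXT1* differed by 0.37 to 0.55, and none of them was called.

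Genes of glucose signalling stood beside these transporters. The glucose repressors *MIG2* and *MIG1* rose by 1.37 and 1.13, and *HXK2*, the hexokinase of glucose repression, rose by 1.29 (SE 0.11, adjusted p = 3.03e-07). *MIG2* was at 7.71, 7.05 and 7.90 in KV473 and 8.93, 8.53 and 9.30 in KV2668, so that the strains were apart but each spread by nearly 1. In liquid medium the difference of *MIG2* was −1.81, with a difference between the media of 3.17 (adjusted p = 2.3e-06). For *HXT2* and *HXT4* it was −0.12 and −0.38 in liquid, again with differences between the media past the test, at 2.01 and 2.08. Between KV68 and KV63 none of *MIG2*, *MIG1*, *HXT2* and *HXT4* was called, the values being −0.30, −0.02, 0.01 and 0.18, and −0.59, −0.48, −0.78 and −0.43 without KV68 replicate 3.

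Among the known regulators of *FLO11*, 28 of which were tested, 3 were higher and 2 lower, beside 4.35% and 1.79% over all probe sets. *MGA1*, a relative of heat-shock factor that promotes filamentous growth, showed the widest change, from 6.83, 6.78 and 6.78 in KV473 to 8.80, 9.25 and 9.21 in KV2668, a rise of 2.29 (SE 0.17, adjusted p = 8.38e-08) or 4.9-fold. It was also higher in liquid, by 1.41. *MIG1* and *MIG2* were the other rises. *HMS2*, another relative of heat-shock factor, fell by 1.39 and the repressor *NRG2* by 1.22, and both were higher in KV2668 in liquid, at 1.08 and 1.69. Both calls were lost when all 18 arrays were fitted together. The activators *FLO8*, *MSS11*, *PHD1* and *TEC1* differed by 0.03, 0.45, 0.44 and −0.34, the repressors *SFL1*, *SOK2* and *NRG1* by 0.64, 0.71 and 0.02, and *STE12* by −0.45, none of them called. Of 15 genes of the filamentation MAPK pathway, the pectin-degrading enzyme *PGU1* was lower, by 1.76 (SE 0.12, adjusted p = 6.81e-08), and *STE11* higher. The 15 genes of the *RIM101* pathway gave no call by limma, and by adjusted p alone 3 were higher and 5 lower, where 29.9% and 30.2% of all probe sets were.

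**Figure D4:**
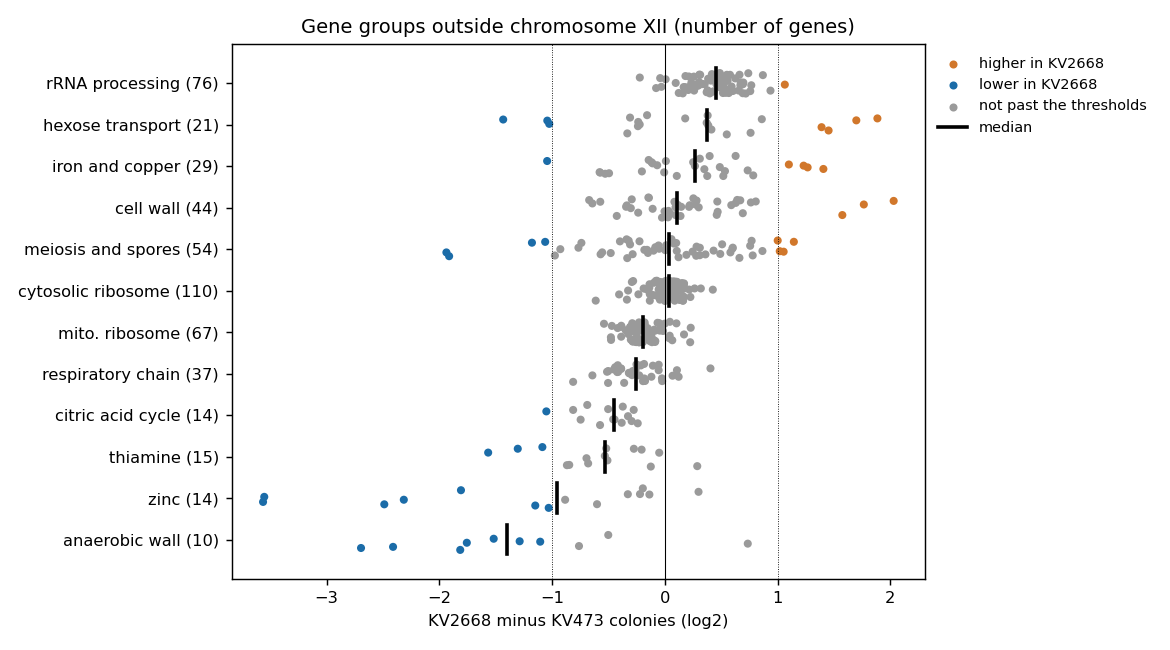
Log2 difference between KV2668 and KV473 colonies (x axis) of each gene in 12 lists (y axis, with the number of genes), leaving out genes of chromosome XII. Orange points were called higher, blue points lower, black bars mark the list medians and dotted lines the size threshold. The anaerobic wall, zinc and thiamine lists lie mostly to the left, and rRNA processing genes form a narrow band with a median of 0.45.

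The cell wall list had 6 of 52 genes higher and none lower, beside 4.35% and 1.79% over all probe sets. Outside chromosome XII these were *MTL1*, *DSE1* and *DSE2*. *MTL1*, a sensor of wall stress, was at 6.62, 6.81 and 6.85 in KV473 and 8.74, 9.01 and 8.63 in KV2668, a rise of 2.03 (SE 0.11, adjusted p = 7.37e-09). *DSE1* and *DSE2*, genes read in daughter cells whose products act in the separation from the mother, rose by 1.77 and 1.57 (adjusted p = 7.69e-08 and 1.24e-07). *DSE1* was at 7.01, 7.0 and 7.03 against 8.55, 8.98 and 8.81. The daughter-cell genes were also higher in liquid, at 2.84 and 2.27, and differed by 0.10 and 0.16 between KV68 and KV63, or 0.23 and 0.13 without KV68 replicate 3. Other genes of that set gave smaller values, 0.76 for *DSE4*, 0.63 for *SCW11*, 0.32 for *DSE3* and 0.29 for *EGT2*, none called. Of the 3 members on chromosome XII, the chitinase *CTS1* rose by 1.11, the glucan synthase *FKS1* by 1.12 and the wall sensor *MID2* by 1.44, and after centring they gave 0.20, 0.21 and 0.52. The *FKS1* call was also lost without KV473 replicate 2 (0.96).

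Meiosis and sporulation genes, 63 in all, gave 7 higher and 4 lower, beside 4.35% and 1.79% over all probe sets. Outside chromosome XII 4 of 54 were higher and 4 lower. *RIM4*, an RNA-binding protein of meiosis, was at 8.76, 8.56 and 8.94 in KV473 and 6.70, 6.94 and 6.80 in KV2668, a fall of 1.94 (SE 0.10, adjusted p = 3.32e-09). It was lower in the other comparisons as well, by 1.29 in liquid and by 1.33 between KV68 and KV63 (adjusted p = 0.00191), or by 1.26 without KV68 replicate 3. *SPO19*, a meiotic surface protein, fell by 1.91 and *SPO11*, which makes the breaks that start recombination, by 1.18. *SPO19* was above background on 1 of the 3 KV2668 arrays. Of the 7 that rose, 3 lie on chromosome XII, among them *OSW2* and *REC102* at 1.37 and 1.34, which gave 0.46 and 0.42 after centring. *IME1* and *NDT80*, the main activators of meiosis, differed by 0.78 and 0.60.

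Among genes outside the lists, *YNL194C*, a relative of Sur7, a protein of the plasma-membrane domains called eisosomes, was at 9.11, 9.42 and 9.26 in KV473 and 11.64, 11.90 and 11.89 in KV2668, a rise of 2.55 (SE 0.12, adjusted p = 2.38e-09). *FMP45*, of the same family, rose by 1.71 and *LDS2*, a protein of the outer spore wall, by 2.07. *FHN1*, a relative of the eisosome organiser Nce102, fell by 1.53 (SE 0.18, adjusted p = 7.63e-06), and no longer passed with all 18 arrays fitted together (adjusted p = 0.0766). The strains were apart on every array for each of these genes, as in 62.1% of all probe sets tested. In liquid medium the genes gave 0.54, 0.71, 0.53 and 0.37.

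The widest rises outside chromosome XII and mating were *YNL234W* and *YNL146C-A*. *YNL234W*, a globin-like heme protein, was at 5.52, 5.20 and 5.85 in KV473 and 9.0, 8.85 and 8.99 in KV2668, a rise of 3.42 (SE 0.17, adjusted p = 3.32e-09). *YNL146C-A*, of unknown function, was nearly constant within each strain, at 5.29, 5.28 and 5.34 against 8.66, 8.68 and 8.69, and rose by 3.38 (SE 0.06, adjusted p = 8.22e-14). *YNL146C-A* gave 3.42 in liquid and 1.10 between KV68 and KV63 (adjusted p = 0.0198), or 0.61 without KV68 replicate 3. For *YNL234W* these values were 1.32, 0.78 and 0.29. *YBL100W-C* was below background on all 3 arrays of KV473 and at 6.87, 6.65 and 6.44 in KV2668, at least 4.75-fold higher (adjusted p = 2.09e-08). *HBT1*, linked to cell polarity in mating, rose by 1.94, the riboflavin transporter *MCH5* by 1.72 and *BDH2*, related to butanediol dehydrogenase, by 1.76. In liquid *HBT1* and *BDH2* differed by 0.47 and 0.49, and *MCH5* by −0.41.

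Of the remaining falls, *DAL80*, a GATA-type repressor of nitrogen catabolic genes, was the largest. It was at 8.14, 7.91 and 7.88 in KV473 and 5.74, 5.74 and 5.84 in KV2668, a fall of 2.20 (SE 0.13, adjusted p = 1.58e-08). In liquid it was below background on every array of both strains, so the value there, 0.22, could not show a difference. Between KV68 and KV63 it differed by 0.89, or −0.01 without KV68 replicate 3. The uptake list to which it belongs had 2 of 44 genes lower, *DAL80* and the proline permease *PUT4* (−1.14, and −0.98 without KV2668 replicate 1, where the call was lost), and 3 higher, *PUT1*, *CAR2* and *MMP1*, all on chromosome XII and at 0.55, 0.52 and 0.44 after centring. The permeases *GAP1*, *MEP2* and *DAL5* differed by 0.06, −0.08 and −0.37. *FDH1*, formate dehydrogenase, fell by 2.05 (SE 0.22, adjusted p = 3.07e-06), from 10.53, 10.84 and 10.72 to 8.54, 8.59 and 8.80, and was higher by 1.13 in liquid. The DNA-damage-induced gene *HUG1* fell by 1.84 and *SET4*, for a protein with a SET domain, by 1.79, the latter call being lost with all 18 arrays fitted together (adjusted p = 0.131).

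Of 36 iron and copper genes 8 were higher (4.35% of all probe sets) and 1, the reductase gene *FRE7* at −1.04, lower (1.79%). Outside chromosome XII the median over 29 genes was 0.27 and 4 were higher, among them *ENB1*, a siderophore transporter, at 1.41 (SE 0.10, adjusted p = 7.41e-08), *ARN2*, another, at 1.23, and *FIT2*, a wall protein that holds siderophores, at 1.27. *ENB1* was at 9.21, 9.17 and 8.96 in KV473 and 10.28, 10.67 and 10.61 in KV2668. On chromosome XII *TIS11*, which degrades messages of iron-using proteins, rose by 1.66 and the reductase *FRE8* by 1.5. After centring *TIS11* kept 0.75 and *FRE8* 0.59.

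Some groups would be miscounted without their chromosome. All 7 sulfur and methionine genes that were higher, of 36, lie on chromosome XII, among them *SAM1* (1.73), *SUL2* (1.67) and *MET17* (1.62), and the median over the 29 members elsewhere was 0.06. After centring *SAM1*, *SUL2* and *MET17* kept 0.82, 0.76 and 0.71. In the ribosomal RNA processing list 11 of 86 genes were higher and none lower, and 10 of the 11 lie on chromosome XII, as *DIP2* (1.5) and *UTP13* (1.42) do, with 0.59 and 0.51 after centring.

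Ribosomal RNA processing differed from the sulfur genes in that the members elsewhere were raised as well. The 76 genes on other chromosomes had a median of 0.45. Over the whole list of 86, with its chromosome XII members, the median was 0.48. In that whole list 75 passed by adjusted p alone in the higher direction, where 29.9% of all probe sets did. In liquid medium the median of the list was −0.14 and between KV68 and KV63 −0.06, or −0.10 without KV68 replicate 3. Cytosolic ribosomal proteins, 128 genes, gave no call by limma and a median of 0.06, with 24 higher and 7 lower by adjusted p alone (29.9% and 30.2% of all probe sets).

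The lists of respiration held 1 call. The citric acid cycle list had a median of −0.41, with 14 of 16 genes lower by adjusted p alone (30.2% of all probe sets) and 1, the succinate dehydrogenase subunit *SDH3*, past both thresholds at −1.05. Without KV2668 replicate 2 *SDH3* fell by 0.999 and was not called. The respiratory chain list had no call among 40 genes by limma and a median of −0.24, with 26 lower and 3 higher by adjusted p alone. Mitochondrial ribosomal proteins had a median of −0.19 on plates and −1.14 in liquid. No call by limma was made among 32 genes of redox defence, 24 of gluconeogenesis and the glyoxylate cycle, or 15 cyclins, which by adjusted p alone gave 6, 5 and 3 genes higher and 18, 8 and 8 lower, where 29.9% and 30.2% of all probe sets were.

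The remaining lists held few calls, though some leaned to 1 side by adjusted p alone. In that count 24 of 40 fatty-acid genes were lower and 7 higher. Of 33 heat-shock genes 21 were higher and 1 lower, and of 59 amino-acid synthesis genes 27 were lower and 11 higher. Over all probe sets 30.2% were lower and 29.9% higher. In amino-acid synthesis *ARG1* and *LYS9* fell by 1.21 and 1.20 among 59 genes, in glycine and 1-carbon metabolism *GCV2* fell by 1.14 among 28, and in fatty-acid oxidation 3 of 40 fell, *TES1* furthest, and *ECI1* on chromosome XII rose by 1.09. *SSA3*, a heat-shock protein of the Hsp70 family, rose by 1.41 (SE 0.08, adjusted p = 1.52e-08), from 12.85, 12.87 and 12.70 to 14.10, 14.31 and 14.23, and *SSA2* on chromosome XII by 1.04. After centring *ECI1* and *SSA2* gave 0.18 and 0.13. Their calls were also lost without KV473 replicate 2 (0.95 and 0.90) or KV2668 replicate 2 (0.997 and 0.97), as were 2 of the 3 lower calls of that oxidation list under other arrays, *PEX11* and *PEX21*. Of 25 phosphate genes *PHM7* and the phosphate importer *PHO84* rose by 1.24 and 1.26, and among drug and acid exporters *RTA1* rose by 1.65 and *PDR12*, which exports weak acids, fell by 1.19. *PHO84* no longer passed with all 18 arrays fitted together (adjusted p = 0.0862).

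**Figure D5:**
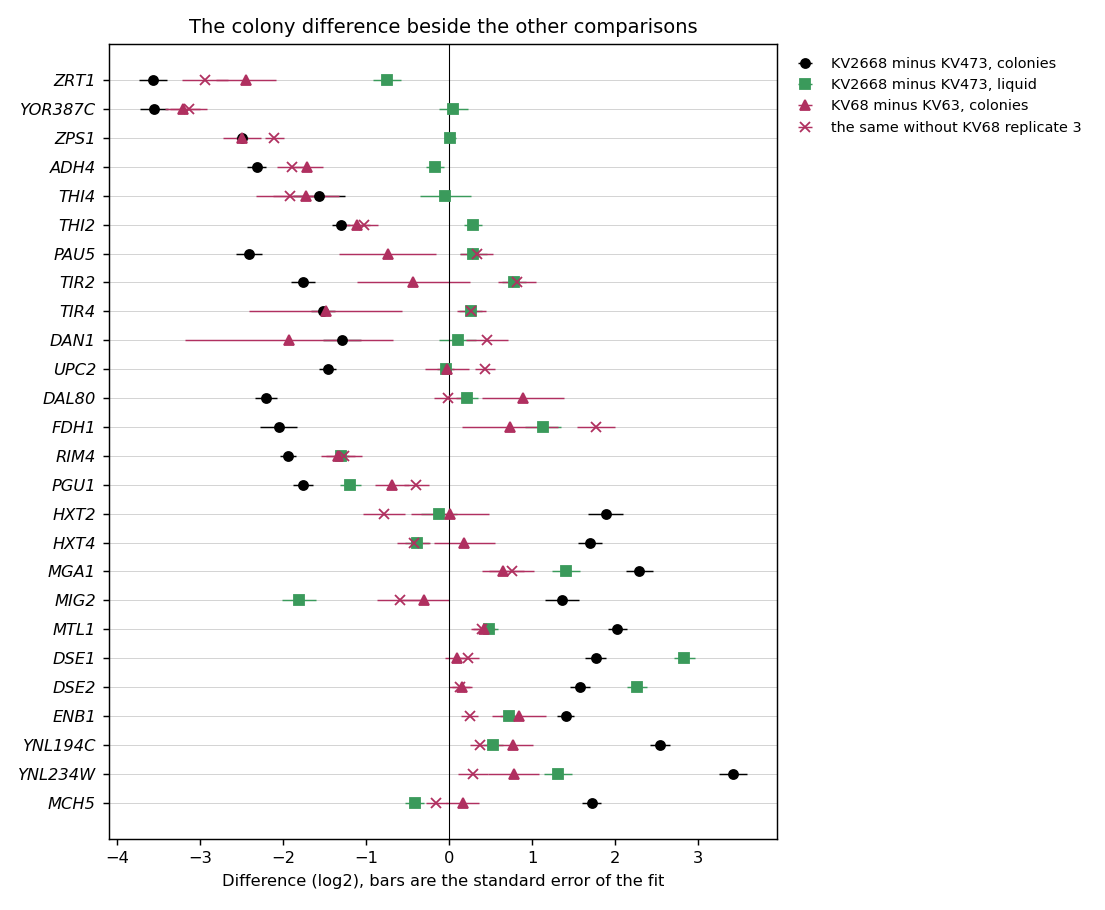
Log2 differences (x axis, bars are standard errors of the fit) of 26 genes outside chromosome XII and mating (y axis) between KV2668 and KV473 as colonies (black) and in liquid (green squares), and between KV68 and KV63 as colonies with all arrays (red triangles) and without KV68 replicate 3 (red crosses). *YOR387C*, *ZPS1*, *ADH4*, *THI2* and *THI4* lie left of 0 in both colony pairs and within 0.29 of 0 in liquid. In liquid *YOR387C*, *DAL80* and *DAN1* were near or below background in both strains.

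As a class, the calls outside chromosome XII and mating were shared only in part with the other comparisons. Of the 89 higher, 17 passed in the same direction in liquid (background 4.5% higher) and 3 between KV68 and KV63 (0.221%), or 1 without KV68 replicate 3 (0.35%). Of the 80 lower, 11 passed in the same direction in liquid (3.78%) and 7 in the other. Between KV68 and KV63 10 of the 80 were lower with KV68 replicate 3 (0.221%) and 10 without it (0.332%). With that array left out 5 of the 80 were higher there. Over the 80, the median between KV68 and KV63 was −0.41, and 0.22 without the array, and over the 89 it was 0.38, and 0.15 without it. The difference between the strain pairs itself passed the thresholds for 44 of the 89 and 18 of the 80 (background 4.61%), and without KV68 replicate 3 for 59 and 52 (7.01%). The difference between the media passed for 46 of the 89 and 54 of the 80 (7.15%).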

How the data were processed

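Affymetrix Yeast Genome 2.0 arrays of total RNA were used. The authors normalized the arrays with RMA, of a version not stated in the labels or the methods, and deposited 1 log2 value per probe set, used here as it stands. Gene names came from the platform annotation and a current RefSeq gene table (R64), which also gave chromosomes and gene order. Of 7686 probe sets 6145 had 1 symbol, 1 had several and 1540 had none, and 12 symbols were updated. *S. cerevisiae* accounted for 5469 and *S. pombe* for 676. A probe set was kept when it was brighter than 95% of the *S. pombe* features on at least 3 of the 18 arrays. This left 5424, and 115 of these can detect more than 1 gene. Every column of the value table was assigned to a sample, with 0 left over.

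Differences were fitted in R 4.3.3 by limma 3.58.1 (lmFit, then eBayes) on the 12 arrays of KV473 and KV2668 in 4 groups of strain and medium (8 residual degrees of freedom), with Benjamini-Hochberg adjustment over all probe sets tested. KV68 minus KV63, and its difference from KV2668 minus KV473, came from all 18 arrays in 6 groups. The leaving out of KV68 replicate 3 was chosen after seeing the data. The fit was tested on simulated data. Lists were counted with 1 probe set per gene, an unshared one first and then the brightest. Members and lists were chosen with earlier results of these data known. The text names *FLO11* and its neighbours, called mating genes, the 10 (chromosome XII) or 20 (elsewhere) widest unshared calls in each direction, and the 6 widest members of each list. Other members of the lists given with values were chosen after their values were seen. Mitochondrially encoded genes had no probe set tested. Promoter motifs were not searched, since no sequence was used here. Arrays have no read depth, so their number limits the precision.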

Additional observations from a re-analysis of the deposited data

Results flagged for a closer look

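The difference between KV2668 and KV473 was not the same on plates and in liquid. The test of the difference between the media passed the thresholds for 388 probe sets (7.15%), 40 of chromosome XII, 11 of mating genes and 337 others. Among the named genes the widest were *YOR387C*, at −3.55 on plates and 0.06 in liquid (difference between the media −3.61), *FDH1*, lower on plates and higher in liquid (−3.18), and *MIG2*, higher on plates and lower in liquid (3.17). *YOR387C* lay near background in liquid in both strains, so its liquid value could not show a difference between them. The liquid labels repeat the plate protocol, so the growth of those cultures is not known here.

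The strain pairs differed as well. The difference between KV2668 minus KV473 and KV68 minus KV63 passed for 250 probe sets (4.61%), 129 of chromosome XII, 18 of mating genes and 103 others, and for 380 without KV68 replicate 3 (147, 24 and 209 by class). It was 6.90 for *HMRA1* (6.73 without that array), 4.02 for *AGA2* (4.33), 4.0 for *MFA2* (5.38), 3.61 for *MFA1* (4.51), −7.08 for *MF(ALPHA)1* (−7.71), −5.52 for *MF(ALPHA)2* (−7.93) and, outside mating, −3.09 for *DAL80* (−2.19). *HMRA1* was below background in KV473 colonies, so its fitted values here are not measured sizes.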

How the results depend on the processing

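None of the named calls between KV2668 and KV473 colonies changed direction under the alternatives run. Rises on chromosome XII that were too small for a call could turn negative when the chromosome was centred. Between KV68 and KV63 some differences changed direction without KV68 replicate 3, such as *PAU5* (−0.74 to 0.33) and *IZH2* (−0.46 to 0.70). All 333 calls were kept with the 6 colony arrays alone, without the filter on dim probe sets, with a stricter one, with dim values set to background and with a replicate block (236 higher and 97 lower under the block). Same-numbered arrays of the strains had correlated deviations of 0.08, 0.18 and 0.21, each the best match of its number, which falls short of showing that numbers pair the arrays. Fitting all 18 arrays kept 312 calls, with 1 lower on chromosome XII in place of 3. Quantile normalization kept 309 (224 higher, 113 lower) and gave a chromosome XII median of 0.78, which was 0.83 after subtracting each array's mean outside the chromosome. Centring each chromosome kept 183 calls and left 105 higher and 93 lower (1.94% and 1.71%), with 4 higher and 11 lower on chromosome XII outside mating. A test against a difference of 1 (treat) gave 91 higher and 36 lower, with 50 and 1 on chromosome XII, 9 mating genes lower, and 33 and 26 others. With no minimum size there were 1620 and 1639, with 424 and 9 on chromosome XII, 17 and 29 mating genes, and 1179 and 1601 others. Leaving out 1 array at a time gave 211 to 256 higher and 89 to 99 lower, with 125 to 148 and 2 to 5 on chromosome XII, 9 to 10 and 12 to 14 mating genes, 77 to 99 and 75 to 82 others, and a chromosome XII median of 0.79 to 0.81. Of the 143 named probe sets called, 126 stayed called with each array left out. Without KV68 replicate 3 the calls between KV68 and KV63 went from 24 to 37, and those of the difference between the pairs from 250 to 380. The promoter motif search that had been planned was not run.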
